A study of Mus musculus with 12 samples.

Results

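The genes of the cytosolic ribosomal proteins were examined in RNA sequencing of mouse muscle stem cells (MuSCs), the resident stem cells of skeletal muscle. Members were taken by their symbol: Rpl or Rps followed by a number, together with Rplp0, Rplp1, Rplp2 and Rpsa, without the Rps6k kinases and without symbols that hold -ps, which name pseudogenes. This gave 89 genes of the 16503 in the table that compares MuSCs with myoblasts, and 91 of the 16169 in the table that compares genotypes. Of these, 46 encode proteins of the large (60S) subunit and 31 encode proteins of the small (40S) subunit in both tables, and they are called the 77 subunit genes below. The remaining members are relatives by name: 7 genes like a ribosomal protein gene in the first table and 9 in the second (Rpl3l and Rpl39l were added there), and 5 copies of ribosomal protein genes elsewhere in the genome (Rpl37rt, Rps12l1, Rps23rg1, Rps3a2 and Rps3a3). All members had at least 10 normalized counts in at least 3 libraries and were tested.

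The 12 libraries were made from 1000 cells each with a full-length cDNA method (SMART-Seq HT), and each group had 3 libraries. In the first comparison, 3 WT mice each gave a library of freshly isolated MuSCs and a library of myoblasts grown from the same animal for 3 days in serum and bFGF. These mice are numbered 04, 05 and 06. In the second comparison, freshly isolated MuSCs of 3 Nedd4L-cKO mice (01 to 03) were compared with MuSCs of 3 other mice labelled Nedd4L WT, all males aged 5 to 6 weeks. The knockout line carries floxed Nedd4L alleles (Nedd4L fl/fl) and Cre at the Pax7 locus (Pax7 cre/+) on a C57BL/6 background, so deletion takes place in cells that use the Pax7 promoter. The authors state that differentiated myofibers carry the deletion too. Which of the floxed and Cre alleles the WT mice carried is not given in the sources used here. MuSCs were sorted as ITGA7-positive cells without CD31, CD45, CD11b and SCA1.

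Each ribosome carries a single copy of nearly every one of these proteins, the P1 and P2 proteins of the stalk being the main exception. The small subunit reads the mRNA and the large subunit joins the amino acids. The mRNAs of nearly all of them start with a C and a run of pyrimidines, the TOP sequence, through which mTOR and LARP1 hold back or release their translation. Quiescent MuSCs are small cells with a low rate of protein synthesis, and the rate rises when they are activated. The amount of an mRNA is therefore only one of the steps that set how much of its protein is made.

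A pair of genes for the same small subunit protein, eS27, shows how closely members can resemble each other and is taken up again beside the results. The coding sequences of Rps27 (chr3:90119819-90120977, minus strand, GRCm39) and Rps27l (chr9:66853340-66856808, plus strand, GRCm39) both hold 255 bases. They are identical at 194 bases and differ at the 61 bases printed in capitals, a 76.1% identity.
Rps27: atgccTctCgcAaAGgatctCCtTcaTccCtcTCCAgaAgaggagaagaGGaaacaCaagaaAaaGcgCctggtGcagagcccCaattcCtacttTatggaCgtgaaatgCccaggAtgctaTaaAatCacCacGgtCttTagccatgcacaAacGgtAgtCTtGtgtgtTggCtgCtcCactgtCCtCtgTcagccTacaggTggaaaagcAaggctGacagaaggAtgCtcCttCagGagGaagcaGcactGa
Rps27l: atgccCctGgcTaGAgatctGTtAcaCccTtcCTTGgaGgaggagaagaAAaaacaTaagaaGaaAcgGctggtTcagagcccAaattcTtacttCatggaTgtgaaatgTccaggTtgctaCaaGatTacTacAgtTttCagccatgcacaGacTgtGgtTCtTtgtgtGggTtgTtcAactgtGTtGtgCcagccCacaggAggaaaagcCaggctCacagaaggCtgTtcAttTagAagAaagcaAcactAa

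Rps25 and Rps27 were among the members with the lowest log2 fold changes in myoblasts against MuSCs, and Rpl39 was among the highest in both comparisons. Rps27l is the partner of Rps27, and Rpl18 was among the large subunit genes of smallest p in myoblasts against MuSCs. No run of 8 or more pyrimidines is near the start of Rplp0 or in the second entry of Rps27l, which is not printed. The promoters of these 6 members are shown. Each is a RefSeq window of 100 bases in the GRCm38.p6 build, read 5′ to 3′ on the strand of the gene, from 70 bases before the annotated start of transcription to 30 bases after it, with runs of 8 or more pyrimidines in capitals. The windows lie at chr9:44407644-44407743 (plus strand) for Rps25, chr3:90213619-90213718 (minus strand) for Rps27, chr9:66946016-66946115 (plus strand) for the first of 2 entries of Rps27l, chr7:45718001-45718100 (plus strand) for Rpl18, chrX:37085193-37085292 (minus strand) for Rpl39 and chr5:115559397-115559496 (plus strand) for Rplp0.
Rps25: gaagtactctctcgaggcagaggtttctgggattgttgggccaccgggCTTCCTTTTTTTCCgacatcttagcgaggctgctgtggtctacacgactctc
Rps27: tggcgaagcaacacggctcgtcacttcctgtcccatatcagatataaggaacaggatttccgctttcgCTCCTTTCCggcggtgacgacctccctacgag
Rps27l: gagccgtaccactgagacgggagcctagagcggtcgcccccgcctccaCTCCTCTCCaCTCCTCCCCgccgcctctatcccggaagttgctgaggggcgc
Rpl18: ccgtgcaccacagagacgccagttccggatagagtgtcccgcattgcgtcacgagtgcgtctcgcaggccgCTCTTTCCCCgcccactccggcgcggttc
Rpl39: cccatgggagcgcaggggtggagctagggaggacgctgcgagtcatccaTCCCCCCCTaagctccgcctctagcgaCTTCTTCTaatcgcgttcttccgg
Rplp0: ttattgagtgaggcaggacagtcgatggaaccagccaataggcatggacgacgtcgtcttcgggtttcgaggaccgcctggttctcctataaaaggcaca

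RefSeq promoters were matched by symbol for 57 of the 77 subunit genes, with 67 start sites. Within 50 bases of the start on either side, a run of at least 8 pyrimidines was present in 80.6% of these 67 windows and in 35.7% of all 32851 windows. The letters CTTTCC, read on the gene's strand, were present in 31.3% and 4.69%. The letters CGGAAG, the core of the site bound by ETS factors, were present on either strand of the whole 300-base window in 62.7% and 16.9%. These motifs were picked after promoter letters of members had been seen, they can overlap, and a match is a description of the letters only. RefSeq start sites are not precise to the base for TOP mRNAs, and shorter runs were not counted. A gene without a run here may therefore still have a TOP sequence.

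Normalized counts of a library summed to between 33189802 and 50687122. They are counts that the authors had already scaled, so read depth is unknown and no interval for counting error could be given. Values below are in RPM, normalized counts scaled so that the mean total of the 6 libraries of a table was 1000000. Fold changes are on the scale log2(RPM + 1), which understates the change of low genes. Genes were tested by limma over the whole table, and a gene was called when its adjusted p was 0.05 or less. Pax7, the transcription factor that defines MuSCs, was present in all MuSC libraries, at 151 to 249 RPM in WT and at 183 to 302 and 156 to 202 RPM in Nedd4L WT and Nedd4L-cKO MuSCs, and at 17.8 to 21.2 RPM in myoblasts. Endothelial and immune markers each summed to at most 49.9 RPM in any library. Other lists were higher in MuSC libraries: smooth muscle markers reached 2951 RPM, fibro-adipogenic markers 2570 RPM and erythroid markers 420 RPM, all in Nedd4L-cKO MuSCs. Mouse ribosomal protein genes have many processed copies: in 87 members with a coding sequence, a median of 96.8% of all stretches of 31 bases were also present in the transcript of another gene, and 35 members had no stretch of their own. Values of single members therefore depend on how the authors' quantification divided such reads.

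Ribosomal protein mRNAs took up a smaller part of the library in myoblasts than in MuSCs. The members made up 3.09%, 3.32% and 3.33% of the normalized counts in the MuSCs of mice 04, 05 and 06, and 1.91%, 2.08% and 2.09% in the myoblasts of the same mice. The means were 3.25 ± 0.138% and 2.03 ± 0.0981% (SD, n = 3 mice), so that the share in myoblasts was 0.625 of that in MuSCs and the groups did not overlap. Of 89 members, 58 fell and 0 rose; at an unadjusted p under 0.05 the counts were 65 and 0. Over all 15345 genes tested by limma, 20.6% fell and 22.2% rose, and at an unadjusted p under 0.05 it was 24.8% and 26.7%. The median log2 fold change was -0.66 over all members and 0.039 over all genes.

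**Figure D1:**
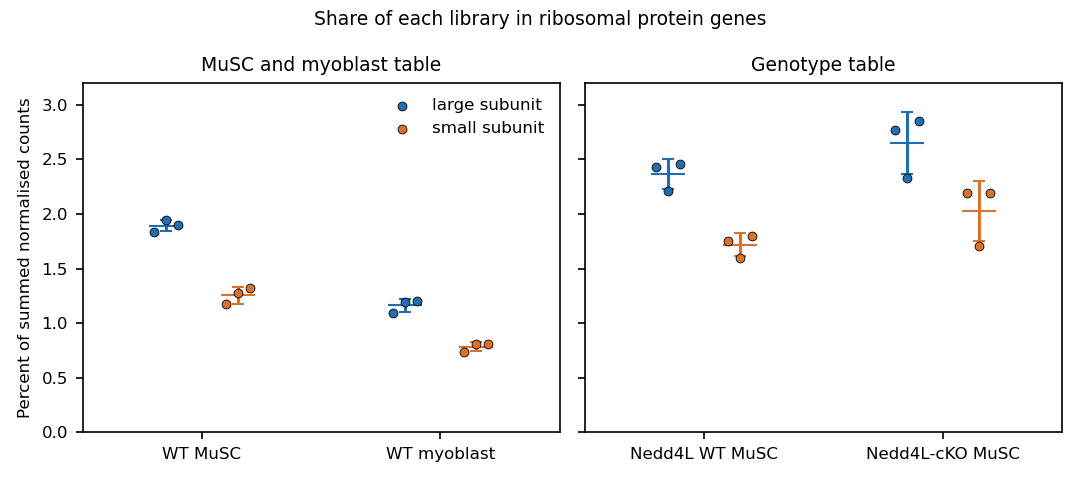
Share of each library's normalized counts (percent) held by large and small subunit genes, in the groups of both comparisons; points are single libraries and bars give the mean ± SD (n = 3). Large subunit genes took 1.84% to 1.94% in WT MuSCs and 1.10% to 1.20% in myoblasts, and the 2 genotypes overlapped for both subunits.

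Both subunits took part. Of 46 large subunit genes 34 fell (median -0.73), and of 31 small subunit genes 20 fell (median -0.63). The ratio of the summed large to the summed small subunit counts was 1.57, 1.52 and 1.44 in MuSCs and 1.49, 1.48 and 1.48 in myoblasts, so the groups overlapped. Within single mice, 69 of the 77 subunit genes were lower in the myoblasts of all 3 mice, 5 in 2 mice and 3 in 1 mouse. This count was not made over all genes, of which 51.7% had a log2 fold change above 0. The median difference over subunit genes was -0.64 in mouse 04, -0.82 in mouse 05 and -0.72 in mouse 06. No member had a log2 fold change above 0, and 67 of 89 had every myoblast library below every MuSC library, against 26.8% of all genes. When each library was scaled to its own total, the median of all genes moved from 0.039 to 0.141, that of the members was -0.52, 86 of 89 members were lower and 41 were called. With that scaling the split of all genes called was 3880 higher and 2714 lower, beside 3402 and 3164.

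RNA was sequenced in bulk from equal numbers of cells, and values are relative to the whole library, so mRNA per cell was not measured. Genes that fell or rose did so in these relative values. The authors describe MuSCs as low in mRNA, so a lower share in myoblasts need not mean less mRNA of a gene per cell. A lower value in every cell also cannot be told apart from fewer cells that carry the mRNA. Transcripts of myofiber genes were also far apart between the groups: the 5 markers summed to 111 to 336 RPM in MuSCs and 8064 to 17936 RPM in myoblasts, 4 of the 5 rose, and none was at 0 in every library. Of the 7 MuSC markers 6 fell, and their sum went from 3981 to 6018 RPM in MuSCs to 645 to 696 RPM in myoblasts. Fibro-adipogenic markers fell in 3 of 5 cases and rose in 1, their sum being 458 to 620 RPM in MuSCs and 3.07 to 4.51 RPM in myoblasts. Myoblast markers rose in 3 of 5 cases (1184 to 1484 RPM and 6267 to 7307 RPM), both erythroid markers fell, and 0 of 3 smooth muscle markers were called although their sums did not overlap (1087 to 1399 RPM and 1633 to 2410 RPM). The part of these transcripts in the lower share of ribosomal protein mRNAs was not tested.

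Among the genes of the large subunit with the smallest p were Rpl10a, Rpl31, Rpl18 and Rpl21. Rpl10a (chr17:28547144-28550008, plus strand, GRCm39), which encodes uL1, the protein of the mobile L1 stalk that guides the spent tRNA out of the ribosome, had 367, 309 and 283 RPM in the MuSCs of mice 04, 05 and 06 and 125, 127 and 132 RPM in their myoblasts (log2 fold change -1.31, SE 0.17, adjusted p = 0.000453). Its 3 myoblast libraries were close to each other and well below all MuSC libraries. Rpl31 encodes eL31, a protein at the rim of the tunnel through which the new chain leaves, and had 191, 235 and 227 RPM in MuSCs and 81.6, 77.1 and 92.8 RPM in myoblasts (log2 fold change -1.37, SE 0.18, adjusted p = 0.000454). Rpl18 had 535, 583 and 434 RPM and 204, 201 and 213 RPM (log2 fold change -1.31, SE 0.18, adjusted p = 0.000461). Rpl21 also fell, with log2 fold change -1.29 (SE 0.17). Rpl3, whose product uL3 reaches towards the site of peptide bond formation, had 1814, 1520 and 1304 RPM and 733, 789 and 678 RPM (log2 fold change -1.06, SE 0.18, adjusted p = 0.00158), and the highest myoblast library was below the lowest MuSC library.

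The stalk recruits the elongation factors that drive each step of translation, and its 3 genes fell together. Rplp0, which anchors the stalk and is in common use as a reference gene in PCR, had 1761, 1538 and 1181 RPM in MuSCs and 1052, 999 and 862 RPM in myoblasts (log2 fold change -0.61, SE 0.19, adjusted p = 0.0322). Rplp1 went from 185, 252 and 278 RPM to 123, 144 and 160.3 RPM (log2 fold change -0.73, SE 0.21, adjusted p = 0.0219), and Rplp2 from 171, 238 and 264 RPM to 119.9, 124 and 148 RPM (log2 fold change -0.76, SE 0.21, adjusted p = 0.0193). In none of the 3 genes did the groups overlap. With each library scaled to its own total 1 of the 3 was called, and over all alternatives the adjusted p ran from 0.0112 to 0.106 for Rplp0, 0.00367 to 0.0886 for Rplp1 and 0.00288 to 0.0759 for Rplp2.

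Rpl5 and Rpl11 form, with 5S rRNA, the particle that can bind and inhibit MDM2 when ribosome assembly stalls. Rpl5 had 167, 99.5 and 121 RPM in MuSCs and 67.2, 78.6 and 83.4 RPM in myoblasts and was called (log2 fold change -0.72, SE 0.23, adjusted p = 0.0324), but not with the mouse as a block (adjusted p = 0.0589; 0.0172 to 0.0941 over all alternatives). Rpl11 had 92.4, 122 and 95.8 RPM and 63.8, 75.9 and 76.6 RPM and was not called (log2 fold change -0.51, SE 0.20, adjusted p = 0.0670), although its groups did not overlap. Of the 7 genes at the rim of the exit tunnel (Rpl17, Rpl19, Rpl22, Rpl23a, Rpl26, Rpl31 and Rpl35), 5 fell, and their median was -0.69. Rpl22, one of those not called, had 70.4, 96.9 and 97.4 RPM and 63.2, 63.7 and 68.1 RPM (log2 fold change -0.42, SE 0.20, adjusted p = 0.127).

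In the small subunit, Rps25 had the lowest log2 fold change of all members. Rps25 (chr9:44318436-44322627, plus strand, GRCm39), a head protein (eS25) that is needed for initiation at several viral and cellular internal ribosome entry sites, had 543, 738 and 1021 RPM in MuSCs and 196, 218 and 286 RPM in myoblasts (log2 fold change -1.68, SE 0.26, adjusted p = 0.000943). All 3 myoblast libraries were low, and the MuSC libraries were themselves spread widely. Rps19, the gene most often mutated in Diamond-Blackfan anaemia, had 1209, 1333 and 1481 RPM and 418, 535 and 582 RPM (log2 fold change -1.40, SE 0.18, adjusted p = 0.000436). Rps23, at the decoding site, had 205, 226 and 214 RPM and 84.4, 109.9 and 108 RPM (log2 fold change -1.09, SE 0.18, adjusted p = 0.00158). In both genes the groups were wide apart. Rps14, whose loss of a copy underlies the anaemia of the 5q- syndrome, and Rps3a1 also fell, with log2 fold changes of -1.04 (SE 0.15) and -1.04 (SE 0.17). Rps3, which lines the entry of the mRNA channel and also acts in DNA repair, went from 877, 799.6 and 599.5 RPM to 444, 394 and 391 RPM (log2 fold change -0.87, SE 0.19, adjusted p = 0.00601).

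Rps6, the target of the S6 kinases, had 639, 764 and 659.5 RPM in MuSCs and 496, 429.8 and 415 RPM in myoblasts (log2 fold change -0.62, SE 0.17, adjusted p = 0.0160). Rps27a, made as a fusion with ubiquitin, had 269.6, 280.3 and 318 RPM and 173, 188 and 198 RPM (log2 fold change -0.63, SE 0.17, adjusted p = 0.0148). Over all alternatives the adjusted p ran from 0.00352 to 0.0719 for Rps6 and from 0.0105 to 0.0843 for Rps27a. Rpsa, also known as the laminin receptor precursor, had 627, 548 and 534 RPM and 409, 429 and 420.1 RPM and missed the threshold (log2 fold change -0.44, SE 0.16, adjusted p = 0.0511). Its groups did not overlap. By position in the subunit, 9 of 14 head genes fell (median -0.66) and 11 of 17 body genes fell (median -0.63).

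**Figure D2:**
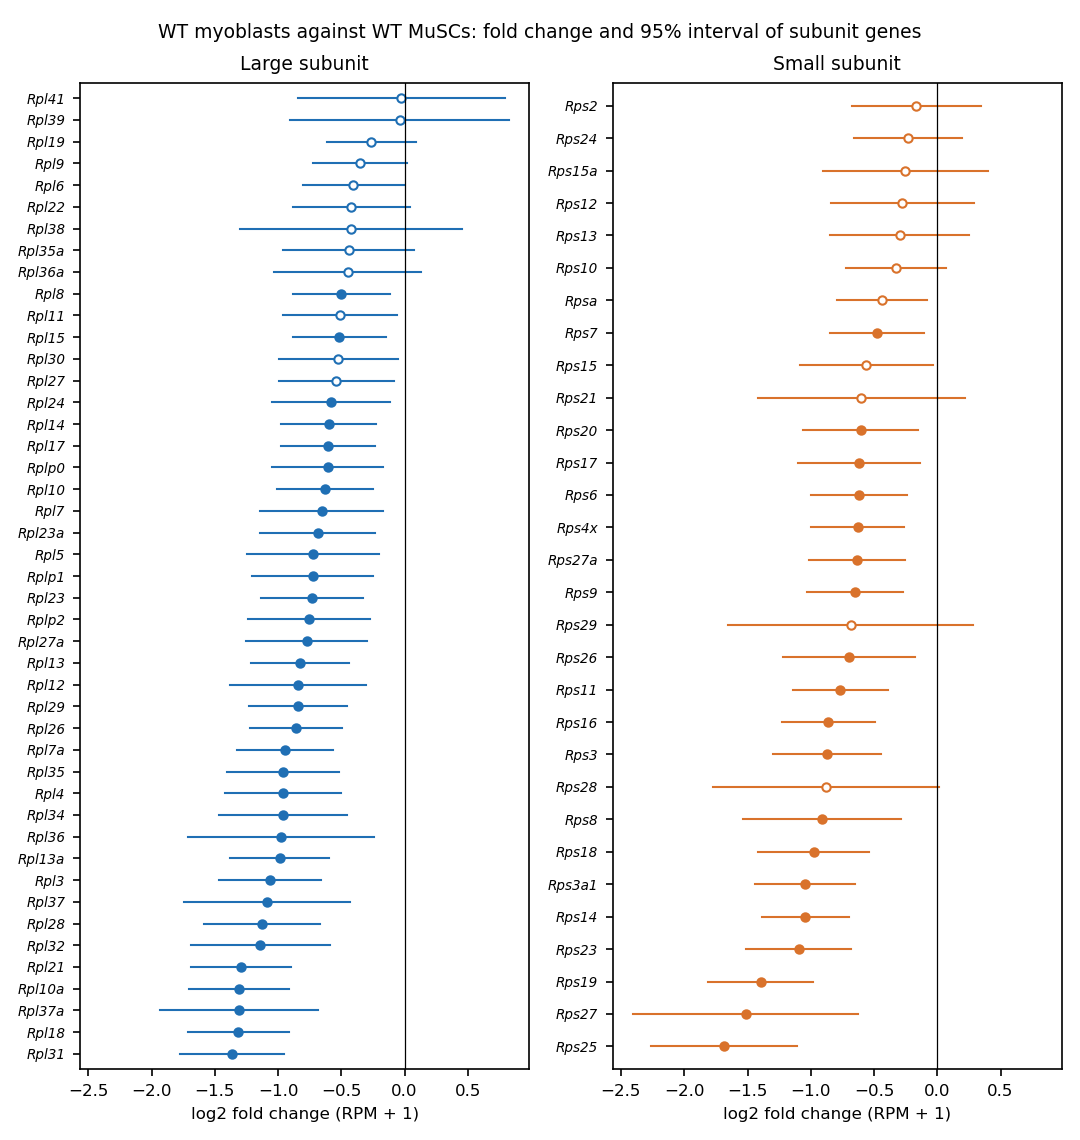
Log2 fold change of subunit genes in myoblasts against MuSCs, ranked within the large and the small subunit, with 95% confidence intervals; filled points were called by limma and open points were not. All values are below 0, from -1.68 for Rps25 to -0.03 for Rpl41.

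At the other end, 23 of the 77 subunit genes were not called. In 9 of them every myoblast library was still below every MuSC library, and in 14 the groups overlapped. Rpl41, whose product is the smallest protein of the ribosome, had 179, 375 and 367 RPM in MuSCs and 179.7, 329 and 391 RPM in myoblasts (log2 fold change -0.03, 95% confidence interval -0.85 to 0.79). Rpl39, a short protein in the wall of the exit tunnel, had 29.8, 60.6 and 76.6 RPM and 33.3, 60.9 and 62.8 RPM (log2 fold change -0.04, interval -0.90 to 0.82). In both genes mouse 04 had the lowest library of each group, and the intervals include the median of the members. The interval of Rpl7l1 was -0.53 to 0.32, which excludes that median.

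Members with more sequence of their own were lower too. Only 6 subunit genes had less than 60% of their 31-base stretches in other transcripts, among them Rpl4, Rpl8 and Rps3. Of these, 5 fell, all 6 had every myoblast library below every MuSC library, and their median was -0.60. With the mouse as a block 3 of the 6 were called, and 3 with each library scaled to its own total. The 48 genes with a pyrimidine run near a start site had a median of -0.67 with 30 called, and the 9 without one (Rpl23, Rpl24, Rplp0, Rps13, Rps28, Rps3, Rps3a1, Rps4x and Rpsa) had a median of -0.63 with 6 called.

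Among the relatives, Rps27l was not called, while its partner Rps27 fell. Rps27 had 116, 199 and 282 RPM in the MuSCs of mice 04, 05 and 06 and 38.6, 73.9 and 95.1 RPM in their myoblasts (log2 fold change -1.52, SE 0.39, adjusted p = 0.0136). Rps27l, which p53 induces, had 193, 287 and 382 RPM and 249.9, 210.1 and 218 RPM (log2 fold change -0.29, SE 0.25, adjusted p = 0.373). The groups of Rps27 were apart, and those of Rps27l overlapped. Over all alternatives the adjusted p of Rps27 ran from 0.000660 to 0.0549, and that of Rps27l from 0.0189 to 0.950. Rps27l made up 62.4%, 59.0% and 57.5% of the sum of both genes in MuSCs and 86.6%, 74.0% and 69.7% in myoblasts, a difference in log2 ratio of 1.22 between the means (0.56 ± 0.15 and 1.78 ± 0.78, SD, n = 3). With 3 libraries a group, the exact permutation test, two-sided, gave p = 0.1, the smallest it can give, and 0.25 after Benjamini-Hochberg adjustment over 5 pairs. For all pairs in this comparison the test treated libraries as independent and did not use the pairing by mouse. In the freshly isolated Nedd4L WT MuSCs, Rps27l made up 39.3%, 37.4% and 39.9% of the sum (mean log2 ratio -0.65). The ratio thus also differed between the WT MuSCs of the comparisons. Values of Rps27 include an uncertain division of reads with Rps27rt, whose coding sequence is identical to that of Rps27.

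**Figure D3:**
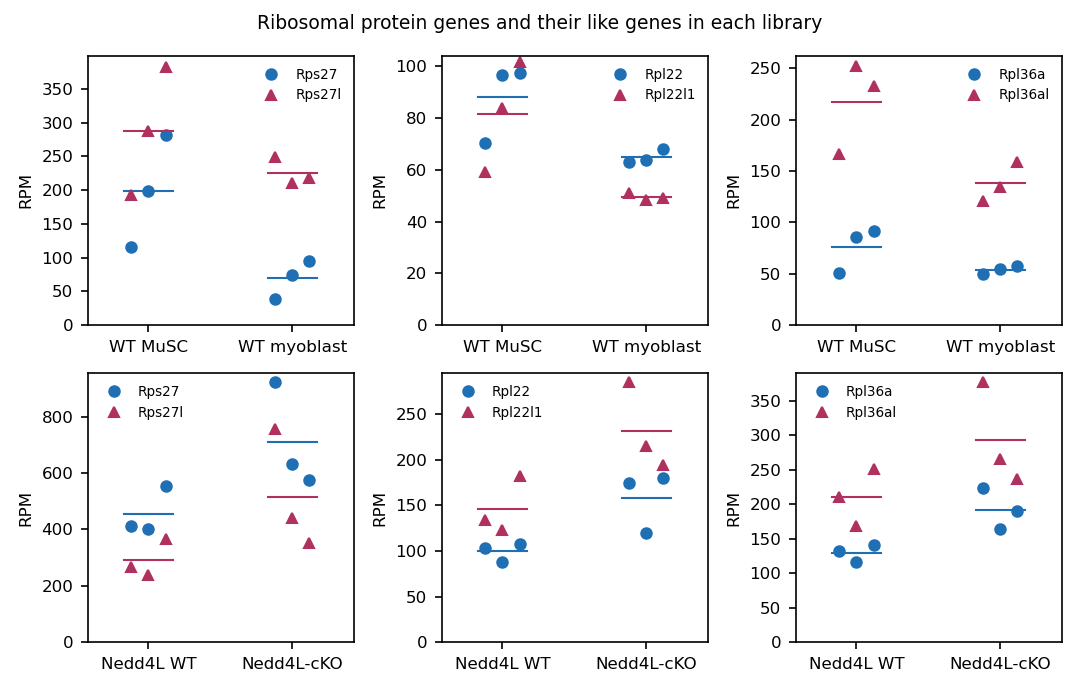
RPM of Rps27, Rpl22 and Rpl36a (circles) and their like genes Rps27l, Rpl22l1 and Rpl36al (triangles) in each library, WT MuSCs and myoblasts above and the genotypes below; points are single libraries and horizontal lines are means. Rps27 lies at 116 to 282 RPM in MuSCs and 38.6 to 95.1 RPM in myoblasts, and the Rps27l points of these groups overlap.

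Of the other relatives, Rpl22l1, a paralog that can replace Rpl22, had 59.4, 83.8 and 102 RPM in MuSCs and 51.3, 48.5 and 49.0 RPM in myoblasts (log2 fold change -0.67, adjusted p = 0.0450). With the mouse as a block it was no longer called (adjusted p = 0.0706; 0.00468 to 0.157 over all alternatives). Rpl36al fell by 0.64 on the log2 scale (adjusted p = 0.0403), but was not called with each library scaled to its own total (adjusted p = 0.0949; 0.00695 to 0.174 over all alternatives). Rps19bp1, which encodes a protein that binds Rps19 and is not part of the mature ribosome, went from 62.9, 81.0 and 63.6 RPM to 57.2, 29.1 and 34.8 RPM (log2 fold change -0.81, adjusted p = 0.0427), again not called with the block (adjusted p = 0.0709; 0.00276 to 0.150 over all alternatives). The copy Rps23rg1, low in all libraries, had 10.7, 10.3 and 7.34 RPM and 3.44, 1.84 and 2.91 RPM (log2 fold change -1.49, SE 0.33, adjusted p = 0.00661). Its log2 fold change was -1.49 beside -1.09 for Rps23, with which it shares most of its sequence. Rps4l (-0.20), Rps27rt (-0.40) and Rpl7l1 (-0.10) were not called. In the 4 pairs other than Rps27 and Rps27l, the difference in log2 ratio between the groups gave exact permutation p from 0.1 to 0.5.

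Genes that work with the ribosomal proteins were called in both directions, and beside them 22.2% of all genes were called higher and 20.6% lower. Rack1, a scaffold on the small subunit, went from 1170, 819 and 737 RPM to 635, 536 and 500.3 RPM (log2 fold change -0.68, SE 0.21, adjusted p = 0.0290; 0.00974 to 0.0914 over all alternatives), and Fau, which encodes eS30, was not called (log2 fold change -0.43, SE 0.18, adjusted p = 0.0834). Of 49 genes for the synthesis and processing of rRNA, 8 rose and 8 fell, with a median of -0.03. Rrp12 (log2 fold change 3.10, adjusted p = 0.000216), needed for export of both subunits, and Bop1 (1.15, 0.00109), of the PeBoW complex in 60S assembly, rose, whereas Taf1b (-1.40, 0.00204), of the RNA polymerase I initiation factor SL1, fell. Of 7 chaperones of ribosomal proteins, 3 fell, among them Bccip (-1.17, 0.00461) and Ltv1 (-0.90, 0.0138; 0.000775 to 0.0607 over all alternatives). Heatr3, which imports uL18, rose (0.66, 0.0338), but not with the mouse as a block (adjusted p = 0.0603; 0.0138 to 0.0871 over all alternatives). Of 14 genes that control TOP mRNAs or ribosome synthesis, Rptor (1.91, 0.00827) and Mlst8 of mTORC1 rose, Myc (-2.45, 0.000195) and Tsc1 (-1.93, 0.000685), an inhibitor of mTORC1, fell, and 10 were not called. Of 78 mitochondrial ribosomal protein genes, 4 rose and 16 fell, with a median of -0.26.

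With the mouse as a block, 51 members were called, 49 of them among the 58. Over all genes, 2887 were called lower with the block, beside 3164 in the main analysis. The count of members was 33 without the MuSC library of mouse 05, 35 without that of mouse 06 and 37 without the myoblast library of mouse 05. Over all genes, 2453, 2554 and 2390 were called lower in these fits. Of the 58 members, 28 were called whichever library was left out.

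In MuSCs of the knockout, limma called 0 members. The targeted gene itself was lower: Nedd4l was at 70.2, 96.4 and 66.7 RPM in WT libraries 01, 02 and 03, beside 30.2, 36.3 and 22.5 RPM in knockout libraries (log2 fold change -1.37, SE 0.28, adjusted p = 0.0467), and the groups did not overlap. It missed the threshold with the replicate number as a block (adjusted p = 0.0763; 0.0200 to 0.210 over all alternatives). The deposited values are per gene and do not single out the deleted exon, so transcripts that lack it still count. Of all 15304 genes tested, 0.784% were called, 80 higher and 40 lower (56 and 44 with each library scaled to its own total). Of 91 members 0 were called, and at an unadjusted p under 0.05, 30 were higher and 0 lower, against 7.51% and 7.13% of all genes.

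Most members had values above 0 in Nedd4L-cKO against WT MuSCs. The log2 fold change was positive in 83 of 91 members, against 50.1% of all genes tested. Its median was 0.41 over all members, 0.36 in the large and 0.41 in the small subunit, and 0.0015 over all genes. When libraries were scaled to their own total, 80 members were positive, and the median of all genes moved to -0.091. Every Nedd4L-cKO library was above every WT library in 50 members, against 9.75% of all genes, and below in 1 member, Rpl13a, against 9.59%. The share of the library was 4.29%, 3.90% and 4.39% in WT MuSCs and 5.14%, 4.17% and 5.17% in Nedd4L-cKO MuSCs (means 4.19 ± 0.257% and 4.82 ± 0.570%, SD, n = 3), and the groups overlapped. The ratio of summed large to summed small subunit counts was 1.38, 1.38 and 1.37 in WT and 1.26, 1.36 and 1.30 in Nedd4L-cKO MuSCs. Every knockout library was below every WT library, and the difference was not tested. The 3 Nedd4L-cKO libraries were not alike: against the mean of the WT libraries, the median over subunit genes was 0.68 in library 01, 0.20 in library 02 and 0.39 in library 03, while the WT libraries lay between -0.16 and 0.09. Without Nedd4L-cKO library 01 the median of the members was 0.29, and without library 02 it was 0.52.

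**Figure D4:**
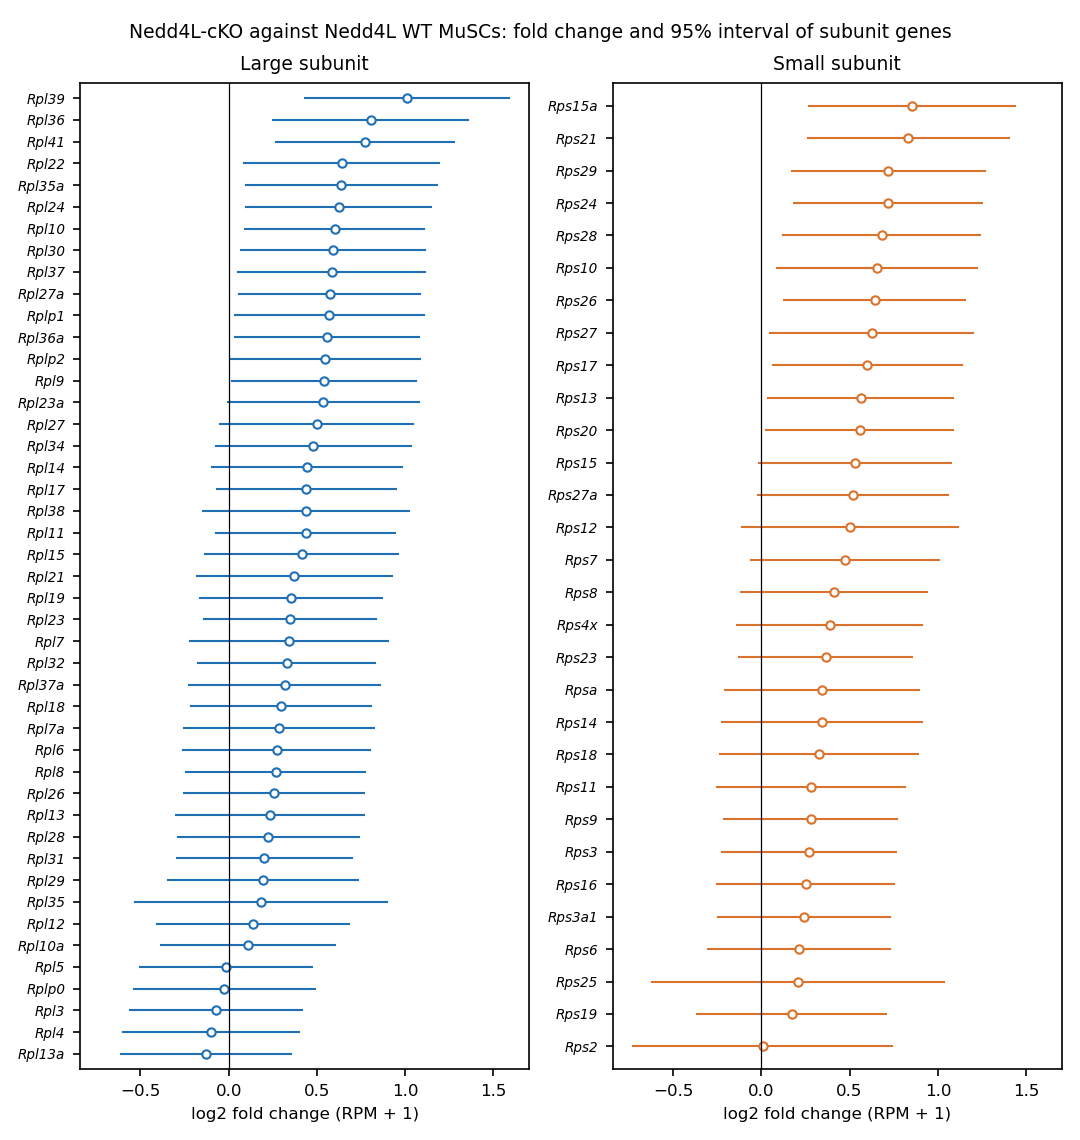
Log2 fold change of subunit genes in Nedd4L-cKO against Nedd4L WT MuSCs, ranked within the large and the small subunit, with 95% confidence intervals; all points are open because limma called 0 members. Values run from -0.13 for Rpl13a to 1.01 for Rpl39, and most intervals include 0.

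In the large subunit the smallest p belonged to Rpl39, Rpl41, Rpl36, Rpl24 and Rpl35a. Rpl39 (chrX:36345092-36349130, minus strand, GRCm39) had 109, 97.0 and 117 RPM in WT and 239, 158 and 272 RPM in Nedd4L-cKO MuSCs (log2 fold change 1.01, SE 0.26, adjusted p = 0.114). Every knockout library was above every WT library, with library 02 the nearest. Rpl41 had 529, 413 and 524 RPM and 849.5, 749.8 and 897 RPM (log2 fold change 0.77, adjusted p = 0.160). Rpl36 had 194, 171 and 233 RPM and 436, 290.0 and 326 RPM (log2 fold change 0.80, adjusted p = 0.181). In both, library 02 was the lowest of the knockout group. Rpl24, which bridges to the small subunit, and Rpl35a, one of the genes mutated in Diamond-Blackfan anaemia, had log2 fold changes of 0.62 and 0.64.

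The stalk genes had unlike values. Rplp1 had 301, 242 and 299 RPM in WT and 509.8, 348 and 405 RPM in Nedd4L-cKO MuSCs (log2 fold change 0.57, interval 0.03 to 1.10, adjusted p = 0.314), and Rplp2 was close to it (log2 fold change 0.55). Rplp0 had 1518, 1245 and 1416 RPM and 1584, 1410 and 1137 RPM (log2 fold change -0.03, interval -0.54 to 0.49), with knockout libraries both above and below the WT libraries. In the 5S particle Rpl5 was at -0.01 (interval -0.50 to 0.47) and Rpl11 was at 0.44 (interval -0.07 to 0.94). Rpl3 had 1489, 1328 and 1469 RPM and 1501, 1358 and 1227 RPM (log2 fold change -0.07). The coding sequences of Rplp0, Rpl5 and Rpl3 hold 954, 894 and 1212 bases, and those of Rplp1, Rplp2 and Rpl11 hold 345, 348 and 537.

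In the small subunit the smallest p belonged to Rps21, Rps15a, Rps24, Rps29 and Rps26. Rps21 had 78.6, 71.2 and 81.1 RPM in WT and 167, 101 and 154 RPM in Nedd4L-cKO MuSCs (log2 fold change 0.83, adjusted p = 0.177). Rps15a had 157, 118 and 149 RPM and 249, 196 and 337 RPM (log2 fold change 0.85, adjusted p = 0.177). In both, library 02 was again the lowest knockout library and still above the WT libraries. Rps24 and Rps26 are further Diamond-Blackfan genes, and eS26 contacts the mRNA upstream of the start codon. Rps24, Rps29 and Rps26 had log2 fold changes of 0.72, 0.72 and 0.64 and adjusted p of 0.210, 0.222 and 0.246. The fixed members of the culture comparison had log2 fold changes of 0.62 for Rps27, 0.52 for Rps27a, 0.64 for Rpl22, 0.35 for Rpsa, 0.27 for Rps3, 0.21 for Rps6 and 0.17 for Rps19, with adjusted p from 0.280 to 0.791. Rps25 shows how unequal the knockout libraries were, with 1262, 1174 and 1158 RPM in WT and 2808, 1133 and 831 RPM in Nedd4L-cKO MuSCs. It was chosen for the genotype comparison after its values were seen.

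Among the relatives, Rps4l had the highest log2 fold change of all members: 7.42, 4.83 and 9.65 RPM in WT and 13.1, 19.8 and 15.8 RPM in Nedd4L-cKO MuSCs (log2 fold change 1.08, SE 0.34, adjusted p = 0.179). Its groups did not overlap, and the values are low. Rps27l had 267, 240.0 and 368 RPM and 755, 440.5 and 351 RPM (log2 fold change 0.77), with overlap, and made up 37.4% to 39.9% of the sum with Rps27 in WT and 37.8% to 45.1% in Nedd4L-cKO MuSCs. Rpl22l1 (0.66), Rps27rt (0.62), Rps19bp1 (0.51), Rpl36al (0.47), Rpl3l (0.13) and Rpl7l1 (0.07) were above 0. Rpl39l (-0.19), Rps3a2 (-0.17) and Rps23rg1 (-0.19) were the lowest of all members. For the log2 ratio of relative and partner, the exact permutation test between genotypes gave p from 0.2 to 1 in the 5 pairs.

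No gene of the lists on ribosome synthesis and control was called in this comparison. Fau and Rack1 had log2 fold changes of 0.42 and 0.02. Of 49 rRNA synthesis and processing genes, 18 were above 0 (median -0.12), and 0 higher and 7 lower had an unadjusted p under 0.05. The 7 chaperones had a median of 0.27 and the 14 genes of TOP mRNA control one of -0.18, with 0 and 2 genes at an unadjusted p under 0.05. Of 78 mitochondrial ribosomal protein genes, which build the separate ribosome of mitochondria, 73 were above 0, and their median of 0.40 was near that of the cytosolic genes.

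Mitochondrial mRNAs and some marker lists also lay apart between the genotypes, and other lists overlapped. Mitochondrial mRNAs took 2.83% to 4.04% of the library in WT and 5.60% to 6.21% in Nedd4L-cKO MuSCs. With each library scaled to its own total the median of the members was 0.28, and with these mRNAs left out of the totals it was 0.32. The median of all genes was -0.091 and -0.065 under these scalings. Smooth muscle markers summed to 1085 to 1740 RPM in WT and 2022 to 2951 RPM in Nedd4L-cKO MuSCs, and myofiber markers to 155 to 335 RPM and 374 to 453 RPM, with 0 of 3 and 0 of 5 called and none at 0 in every library. Of the 7 MuSC markers 6 were below 0 and 1 was called, Cd34, a surface protein of quiescent MuSCs (267, 349 and 243 RPM in WT and 116, 102 and 62.5 RPM in Nedd4L-cKO MuSCs; log2 fold change -1.64, SE 0.29, adjusted p = 0.0293; 0.00839 to 0.131 over all alternatives). The summed MuSC markers overlapped between the genotypes, at 3639 to 7138 RPM and 2690 to 6228 RPM. Of the 5 myoblast markers 4 were above 0 and 1 was called, the mitotic cyclin Ccnb1 (32.8, 11.0 and 9.93 RPM and 91.6, 63.4 and 71.3 RPM; log2 fold change 2.20, SE 0.40, adjusted p = 0.0325; 0.00512 to 0.116 over all alternatives), and their sums overlapped too. The 3 glial markers were below 0, 2 of them at an unadjusted p under 0.05 and 0 called, with sums of 11.3 to 31.4 RPM and 1.58 to 13.8 RPM. Endothelial, immune, fibro-adipogenic and erythroid markers had 0 calls, and their sums overlapped. Fibro-adipogenic markers summed to 715 to 1983 RPM in WT and 687 to 2570 RPM in Nedd4L-cKO MuSCs. Erythroid markers summed to at most 199 RPM in WT and 420 RPM in Nedd4L-cKO MuSCs. The part of these transcripts in the higher values of the members was not tested.

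The difference between genotypes followed the length of the coding sequence. Over the 77 subunit genes, log2 coding length correlated with the log2 fold change at Pearson's r = -0.68 (Spearman's rho = -0.62) in the genotype comparison, and at -0.09 (0.01) in the culture comparison. These points are genes measured in the same 6 libraries. In the genotype comparison the median was 0.68 in the 9 genes of up to 300 coding bases, 0.53 in 27 genes of up to 450, 0.37 in 19 of up to 600, 0.27 in 19 of up to 900, and -0.07 in the 3 longer genes. Other protein-coding genes ran in the same order, with medians of 0.44, 0.29, 0.21, 0.11 and -0.07. When the median of other genes of like length was taken off in each library, the median of the members was 0.17, and 69 of 91 were above 0.

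**Figure D5:**
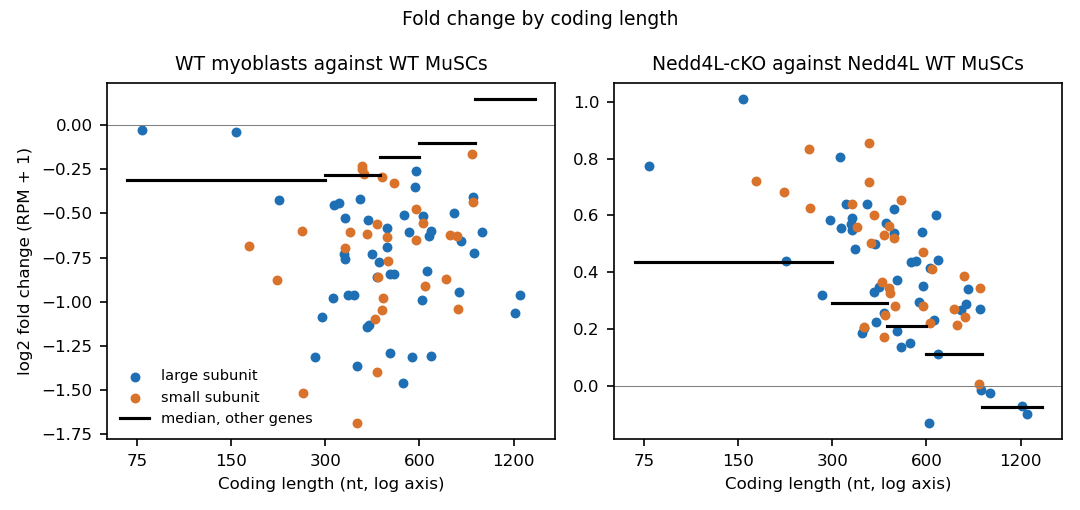
Log2 fold change of the 77 subunit genes against coding length (bases, log axis) in both comparisons; black lines are the medians of other protein-coding genes in each length class. In the genotype comparison the points come down with length as the black lines do, and in the culture comparison most of them lie below the lines.

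In the culture comparison single libraries showed a trend with length over the subunit genes, while the fold change of the subunit genes did not. The deviation of the MuSC library of mouse 04 from its group mean correlated with log2 coding length at r = 0.85, and that of mouse 06 at -0.81. For the myoblast libraries the values were 0.57 in mouse 04 and -0.77 in mouse 06. Short members were thus low in both libraries of mouse 04 and high in both of mouse 06. The median log2 fold change of the subunit genes was -0.68, -0.73, -0.65, -0.63 and -0.96 from the shortest to the longest class, beside -0.31, -0.28, -0.18, -0.10 and 0.15 in other genes. Without mouse 04, 69 members were called, 56 of them among the 58, and with the correction for length 40 were called, 38 of them among the 58. Over all genes, 3670 were called lower without mouse 04 and 3286 with that correction, beside 3164 in the main analysis.

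The comparisons share no library, and the median over subunit genes was -0.69 in myoblasts against MuSCs and 0.39 in Nedd4L-cKO against WT MuSCs. Across the 77 genes the log2 fold changes of both comparisons correlated at r = 0.44 (rho = 0.45), so that genes with lower values in one tended to have lower values in the other. The part of coding length in this correlation was not tested, and no value over all genes was set beside it. Rpl39 and Rpl41 stood near the top of both orders, at -0.04 and -0.03 in culture and 1.01 and 0.77 in the knockout. Their coding sequences are short, at 156 and 78 bases, and their culture intervals are wide (-0.90 to 0.82 and -0.85 to 0.79). Rpl3 and Rpl13a fell in culture, at -1.06 and -0.99, and were among the 3 lowest subunit genes in the knockout, at -0.07 and -0.13. Nedd4l itself fell in myoblasts as well, from 126, 77.6 and 76.3 RPM to 42.0, 30.3 and 29.8 RPM (log2 fold change -1.40, SE 0.26, adjusted p = 0.00289).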

How the data were processed

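Full-length cDNA of 1000 cells per library was sequenced as single-end reads. Per the labels and the study's methods, the authors quantified transcripts with Kallisto 0.46.1 against basic GENCODE M28, made gene sums by tximport and normalized these in DESeq2, with each table handled on its own. The unit of the deposited values is a signal: the authors' gene counts after division by factors from DESeq2. Reads could not be recovered from them, so no count model was run. The authors' fold changes and p-values in the tables were not used, nor were 18 further columns with values per sample, which hold the same normalized counts again or RPM.

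Groups and replicate numbers came from the sample labels. Values were scaled by the mean of the 6 library totals to RPM, and log2(RPM + 1) was fitted with limma 3.58.1 in R 4.3.3 (lmFit, eBayes with trend and robust) with group as the only term, for genes that reached 10 normalized counts in 3 or more libraries. The Benjamini-Hochberg adjustment ran over all genes tested, and the procedure was tested on simulated data. Figures were drawn with matplotlib 3.10.9 in Python 3.11.15. The MuSC and myoblast libraries of a number come from the same mouse, as the series' design states, although deviations of same-numbered libraries from their group means correlated at only -0.03, -0.01 and 0.02, and a fit with the mouse as a block was the alternative. The genotype libraries come from separate mice.

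Positions, coding lengths and shared stretches of 31 bases came from GENCODE M39 (GRCm39), a later release than the authors', and promoters from RefSeq (GRCm38.p6). Protein sequences were not used here. The members, gene lists and tests were chosen with earlier results of these data known. Named were a fixed set of stalk, 5S particle and reference members, all like genes, the 5 genes of smallest p per subunit and the 3 highest and 3 lowest log2 fold changes of each comparison, and in the other lists the called genes, at most 3 of smallest p, Mlst8 being named beyond that limit. Members highest per length were not picked, because transcript lengths were uncertain. Other genes named, such as Rpl13a and, between genotypes, Rps25, were chosen after their values were seen. Some genes that this rule names are not reported here or drawn by name, but they stay in the counts and medians. The labels give no batch or date. Alternatives changed the scaling, pseudocount, filter, moderation, treatment of pseudogenes and block, and left out each library in turn.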

Additional observations from a re-analysis of the deposited data

How the results depend on the processing

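In the culture comparison the members stayed lower as a group in every alternative, with 33 to 57 called when 1 library was left out and 40 to 69 under the other alternatives. All genes called in either direction were 6566 in the main analysis. They ran from 5032 to 6910 when 1 library was left out and from 5278 to 7654 under the other alternatives. The median log2 fold change of -0.66 moved by more than the spread of the library medians to -0.519 with own library totals, -0.521 with mitochondrial genes left out of them, -0.537 with ribosomal protein genes left out of them and -0.522 with the correction for coding length, which was added after the data were seen. Leaving out 1 library gave medians from -0.796 (without the MuSC library of mouse 04) to -0.614. In the genotype comparison 0 members were called in all alternatives, with the replicate number as a block too. The median of 0.41 moved to 0.174 with the correction for coding length and lay between 0.290 and 0.520 when 1 library was left out.

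Of 576 values of named genes under alternatives in the culture comparison, 505 kept their side of the threshold, 66 lost the call, 5 gained it and 0 changed direction after a call. In the genotype comparison all 576 kept their side. Direction changed under some alternative in 8 of 89 members in culture, none of them called, and in 21 of 91 members between genotypes. The replicate numbers of the genotype libraries name separate mice (correlation of deviations 0.02, -0.02 and -0.18), and the block changed no call of a member there. In that comparison all genes called were 120 in the main analysis, and 76 with the block, from 22 to 123 when 1 library was left out, 50 without trend and robust moderation, 60 with the correction for length and 213 with the filter at 10 in every library. Because depth is unknown, no limit from counting could be set for low members such as Rps3a2 and Rps3a3.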
